A study of Mus musculus with 2 samples.

Results

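The 39 protein-coding Hox genes of the mouse lie in 4 clusters, HoxA with 11 genes on chromosome 6, HoxB with 10 on chromosome 11, HoxC with 9 on chromosome 15 and HoxD with 9 on chromosome 2. Chromatin accessibility at these clusters was read from 14 windows of 50 kb that span the clusters, 13 of which overlap a Hox gene, and from 157 windows within 1 Mb on either side, 171 of the 43941 windows measured in all. Members were chosen by gene symbol (Hoxa, Hoxb, Hoxc or Hoxd followed by digits) and position in the mm10 genome build, not by any measured value. Hox genes encode homeodomain transcription factors that pattern the head-to-tail axis and the limbs. Within a cluster they are activated in the order in which they lie, from the genes with low numbers at the 3′ end to those with high numbers at the 5′ end. In pluripotent cells the clusters are known as large Polycomb-repressed domains carrying active and repressive histone marks together, and they are flanked by gene-poor regulatory landscapes and by housekeeping genes.

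The cells were F121-6, a hybrid line of female mouse embryonic stem cells with 1 chromosome set from 129 and 1 from castaneus (CAS) mice, kept with serum and LIF on mitomycin-C-inactivated mouse embryonic fibroblasts. ATAC-seq, in which a transposase tags open DNA, was applied to nuclei of 200000 cells per library in 2 replicates. There is 1 group of samples, so the design implies 1 contrast, the 129 against the CAS allele within the same cells, and the levels of regions are described without a test. The labels do not give which strain was the mother, whether the line is a single clone or whether the replicates were separate cultures. P-values therefore measure only the spread between these libraries, which may be technical, and in edgeR's test the counting error of a Poisson fit.

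The table gives 1 count per window, allele and replicate. Counts ranged from 0 to 18 and totalled 44026 (129) and 46128 (CAS) in replicate 1, and 59812 (129) and 59995 (CAS) in replicate 2. What was counted is not given in the sources used here, so the read depth behind a count is unknown. Levels are given below as the mean count per window of both alleles over the mean of all windows of the same replicate. A level of 1 is thus the table average. The table holds only counts assigned to an allele. The level of a region may thus also depend on the number of sequence differences between the strains, which was not tested. Windows over 10 embryonic stem cell markers, among them Nanog and Pou5f1, had a relative level of 4.78 ± 0.215 (SD, n = 2). None of them was at 0, against 21.7% of all windows. Windows over 10 markers of the fibroblast feeders had a relative level of 1.04 ± 0.0896. None of these 10 genes was at 0 either, the lowest being Twist1 with 1 count in all 4 columns together. The part of feeder cells in the Hox values was not tested. In such bulk samples fewer cells with an open site and a less open site in each cell cannot be told apart.

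Sequences are shown for 4 Hox promoters, since they set promoters in windows without a count beside CpG-rich promoters in windows with counts. They are taken from RefSeq (GRCm38.p6), each running 5′ to 3′ from 250 bases before to 50 bases after the gene's start, with CpG dinucleotides in capitals. Hoxa13 (chr6:52260831-52261130, minus strand) and Hoxb4 (chr11:96318017-96318316, plus strand) lie in windows at 0, Hoxd13 (chr2:74667975-74668274, plus strand) and Hoxd1 (chr2:74762730-74763029, plus strand) in windows with counts.
Hoxa13: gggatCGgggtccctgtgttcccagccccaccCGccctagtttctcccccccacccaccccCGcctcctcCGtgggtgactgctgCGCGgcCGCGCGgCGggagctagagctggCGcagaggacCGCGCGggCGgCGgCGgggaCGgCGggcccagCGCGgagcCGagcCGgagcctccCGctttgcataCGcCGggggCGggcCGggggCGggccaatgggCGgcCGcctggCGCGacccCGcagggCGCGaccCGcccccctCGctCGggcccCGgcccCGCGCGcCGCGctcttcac
Hoxb4: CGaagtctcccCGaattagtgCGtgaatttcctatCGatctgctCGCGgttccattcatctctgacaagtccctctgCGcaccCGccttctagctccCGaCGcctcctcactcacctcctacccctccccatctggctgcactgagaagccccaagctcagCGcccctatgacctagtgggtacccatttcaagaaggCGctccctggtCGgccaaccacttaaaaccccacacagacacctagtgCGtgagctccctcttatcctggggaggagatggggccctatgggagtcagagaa
Hoxd13: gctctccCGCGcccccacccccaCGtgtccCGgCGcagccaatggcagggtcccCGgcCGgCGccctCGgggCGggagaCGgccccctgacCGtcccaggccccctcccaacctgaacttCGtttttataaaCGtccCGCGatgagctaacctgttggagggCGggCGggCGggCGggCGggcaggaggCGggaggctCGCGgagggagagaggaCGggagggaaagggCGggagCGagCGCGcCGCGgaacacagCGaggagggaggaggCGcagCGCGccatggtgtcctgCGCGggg
Hoxd1: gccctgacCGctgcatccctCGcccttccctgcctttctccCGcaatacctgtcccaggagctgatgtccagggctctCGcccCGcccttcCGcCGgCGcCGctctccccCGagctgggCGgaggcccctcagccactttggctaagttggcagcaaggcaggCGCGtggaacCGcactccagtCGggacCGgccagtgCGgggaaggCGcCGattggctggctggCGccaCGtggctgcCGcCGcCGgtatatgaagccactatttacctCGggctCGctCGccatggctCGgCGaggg

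The Hoxa13 promoter held 45 CpG dinucleotides, the most among the Hox promoters at hand, and its window had 0 counts in all 4 columns. The Hoxb4 promoter held 14, near the median of the Hox promoters, and its window also had 0 counts. The Hoxd13 promoter held 37, in a window with a summed count of 7, and the Hoxd1 promoter 29, in a window with a summed count of 6. Promoters of 22 of the 39 Hox genes were matched, 24 promoters in all. Their median CpG count of 14.5 (range 4 to 45) and median GC content of 57.7% lay close to the medians of all promoters of coding genes, 13 and 56.3%. The window around a Hox promoter averaged 3.42 counts over the 4 columns, against 8.30 for promoters of coding genes in the flanks and 8.01 for those of all coding genes. Most matched Hox promoters were of HoxA and HoxD, with only Hoxb1, Hoxb4 and Hoxb8 from HoxB and Hoxc4 from HoxC. Of the 24, 5 lay in windows at 0, whereas 12 of all 39 Hox genes did, so 3.42 does not stand for the Hox genes as a whole. Among promoters with at least 15 CpG dinucleotides, the 12 Hox promoters lay in windows averaging 4.33 counts, 8.33% of them at 0, and the 8873 promoters of all coding genes that have a window in the table lay in windows averaging 9.37 counts, 3.11% of them at 0. The TATAAA motif, searched as these letters on both strands, was found in 4 of 24 Hox promoters (16.7%) and in 13.6% of all promoters of the same length. Neighbouring promoters share windows, so these averages are descriptions over overlapping values.

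The 4 clusters together had fewer counts per window than the table average in both replicates. Their relative levels were 0.731 in replicate 1 and 0.314 in replicate 2 (0.523 ± 0.295, SD, n = 2). Their 157 flank windows stood at 1.15 in replicate 1 and 0.727 in replicate 2 (0.941 ± 0.303). The cluster-to-flank ratio was 0.633 in replicate 1 and 0.433 in replicate 2, below 1 in both. In counts, the 14 cluster windows held 33 over the 4 columns, a mean of 2.36 per window, against 4.35 in the flanks and 4.78 over all windows. The median was 1 per window in the clusters, and 3 both in the flanks and over all windows. No count in any of the 4 columns was found in 5 of 14 cluster windows and in 44 of 157 flank windows, against a background of 21.7% of all windows.

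**Figure D1:**
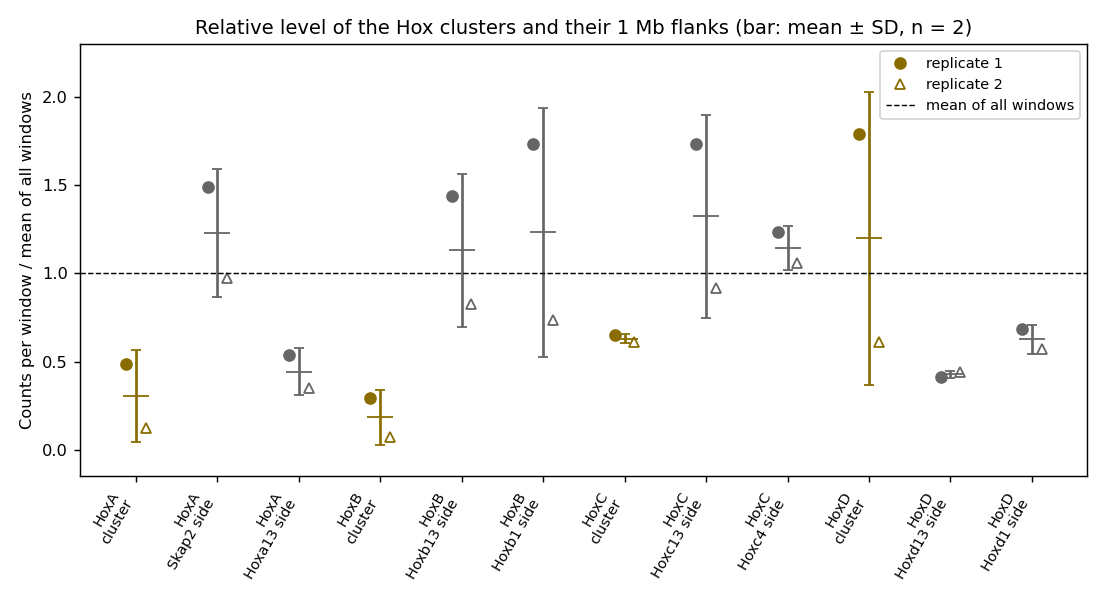
Relative level (counts per window of both alleles over the mean of all windows, no unit) of the 4 Hox clusters and of the 1 Mb flank on each side, with replicate 1 as circles, replicate 2 as triangles and bars for the mean ± SD (n = 2). HoxA, HoxB and HoxC lie below 1 in both replicates, and HoxD has 1.79 in replicate 1 and 0.611 in replicate 2.

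HoxB was the lowest cluster in both replicates. Its 5 windows (chr11:96150001-96400000) had a relative level of 0.292 in replicate 1 and 0.0734 in replicate 2 (0.183 ± 0.155). All of its 4 counts lay at the Hoxb13 end. The window with Hoxb13, the isolated gene active in the tail end and the prostate, also overlaps Ttll6, a tubulin-modifying enzyme, and had 1 count (129) and 1 (CAS) in replicate 1, and 1 (129) and 0 (CAS) in replicate 2. The next window, with no coding gene, had 1 count, on the 129 allele in replicate 1. The 3 windows from Hoxb9 to Hoxb1, genes that pattern the hindbrain and trunk, were at 0 in all 4 columns. A count of 0 over 3 windows allows up to 1 count per window, against 4.78 over all windows, so the limit for the 9 genes from Hoxb1 to Hoxb9 lies below the table average. The 3 windows were singled out for their 0, and the limit covers counting error only.

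HoxA was the next lowest, at 0.487 in replicate 1 and 0.122 in replicate 2 (0.305 ± 0.258) over 3 windows (chr6:52150001-52300000). The middle window, with Hoxa5, Hoxa6, Hoxa7, Hoxa9, Hoxa10 and Hoxa11 and part of Hoxa3, had 1 count (129) and 1 (CAS) in replicate 1, and 1 (129) and 0 (CAS) in replicate 2. The window of Hoxa13, a gene of the distal limb and the genital tract, and of the noncoding RNA Hottip was at 0. In a lone window a count of 0 allows up to 3 counts over the 4 columns, which is also the median of all windows, so a low level was not detectable there at this depth. The SDs of HoxA and HoxB overlap.

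HoxC had 0.650 in replicate 1 and 0.611 in replicate 2 (0.631 ± 0.0273) over 3 windows (chr15:102900001-103050000). Of its 9 counts, 8 lay in the window of Hoxc13 and Hoxc12, which also holds Hotair, a noncoding RNA transcribed antisense to the HoxC genes. That window had 3 counts (129) and 1 (CAS) in replicate 1, and 1 (129) and 3 (CAS) in replicate 2, so the higher allele changed between the replicates. The window from Hoxc11 to Hoxc6 had 1 count, on the 129 allele in replicate 2. The window of Hoxc5 and Hoxc4, with part of Hoxc6, was at 0.

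HoxD stood apart from the other clusters in that none of its 3 windows (chr2:74650001-74800000) was at 0. Its relative level was 1.79 in replicate 1 and 0.611 in replicate 2 (1.20 ± 0.831), the highest in replicate 1 and level with HoxC in replicate 2. The window from Hoxd13 to Hoxd9, genes of the developing limb and trunk, also overlaps Evx2, the even-skipped homeobox gene beside them. It had 3 counts (129) and 2 (CAS) in replicate 1, and 2 (129) and 0 (CAS) in replicate 2. The window of Hoxd8, Hoxd4 and Hoxd3, with part of Hoxd9, had 2 (129) and 1 (CAS) in replicate 1 and none in replicate 2. The window of Hoxd1 had 2 (129) and 1 (CAS) in replicate 1, and 1 (129) and 2 (CAS) in replicate 2. HoxD was above HoxA and HoxB in each replicate, but its own replicates differed by more than its mean differed from theirs.

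**Figure D2:**
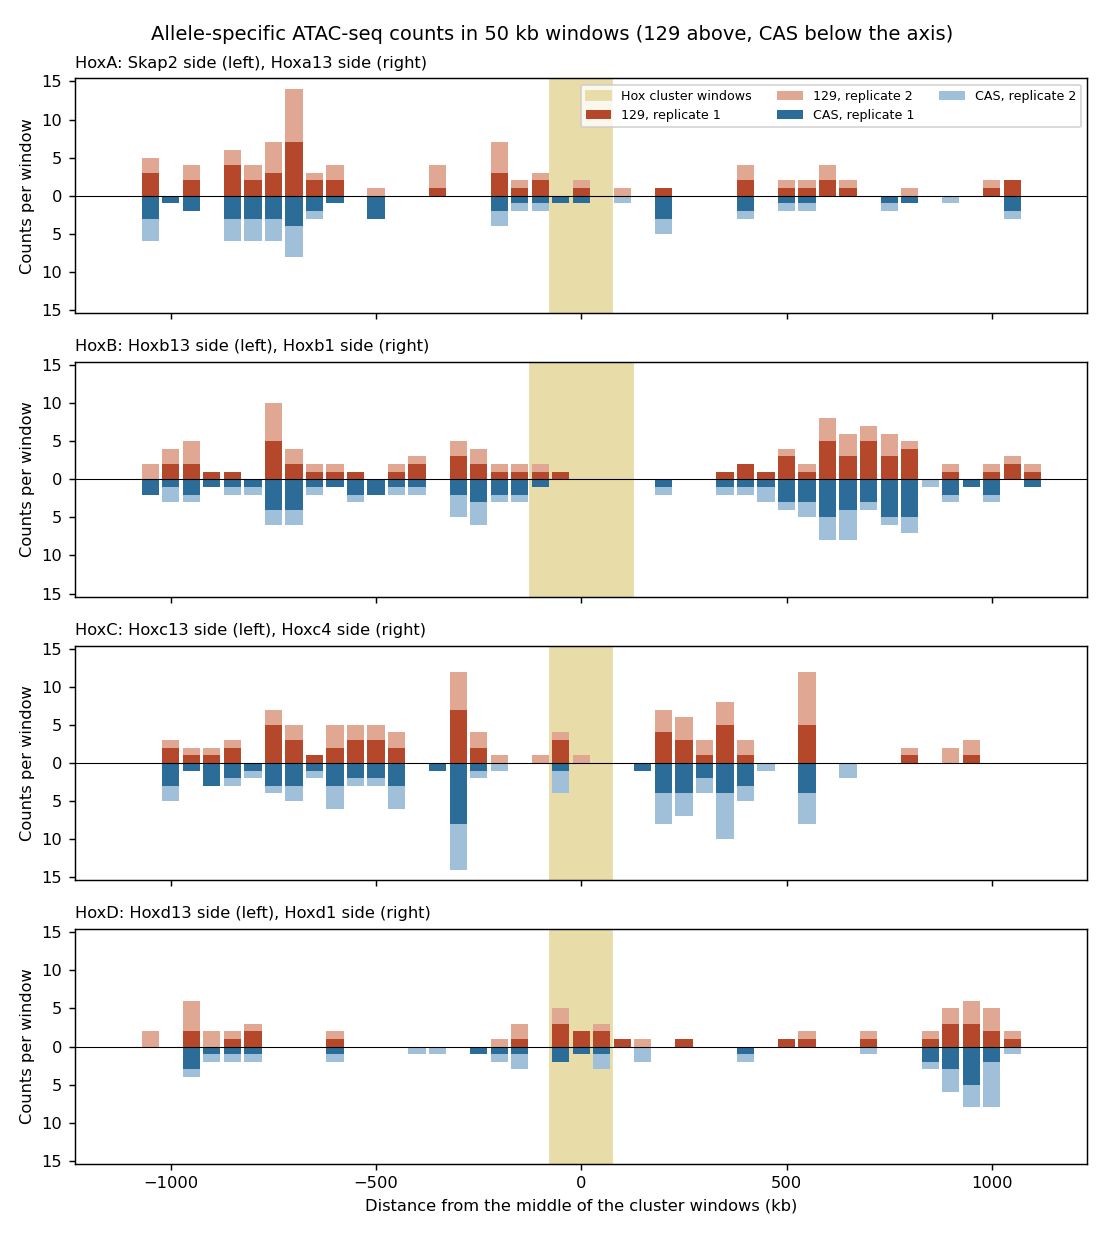
Counts per 50 kb window of the 129 allele (above the axis) and the CAS allele (below it), stacked over replicates 1 and 2, against distance from the middle of each cluster in kb. The shaded windows span the cluster, and a run of 3 empty windows fills the Hoxb1 end of HoxB while counts rise again in the flanks.

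Across the clusters, 27 of the 39 Hox genes lay in a window with at least 1 count, 10 of 11 in HoxA, 1 of 10 in HoxB, 7 of 9 in HoxC and 9 of 9 in HoxD. Of all windows, 78.3% held at least 1 count, and 9.95% of coding promoters lay in a window at 0. Several genes share each window, so these genes are not independent. In HoxB and HoxC the counts were concentrated at the end with the high-numbered genes, and in HoxA and HoxD they were not.

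The clusters were low for windows so dense in genes. Cluster windows overlapped 3.21 coding genes on average, against 1.05 in the flanks and 0.833 over all windows. Over all windows the summed count was higher with each further coding gene, with a mean of 3.52 in windows with 0 genes and 9.46 in the 876 windows with 4 or more. The 7 cluster windows with 4 or more genes averaged 2.14 (median 1, highest 7), whereas the 6 flank windows with 4 or more genes averaged 9. Of these 7 cluster windows 2 were at 0, against 5.82% of all windows with 4 or more genes, whose median was 8. In the other direction, the 55 flank windows without a coding gene averaged 1.60, below the 3.52 of all windows without one.

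**Figure D3:**
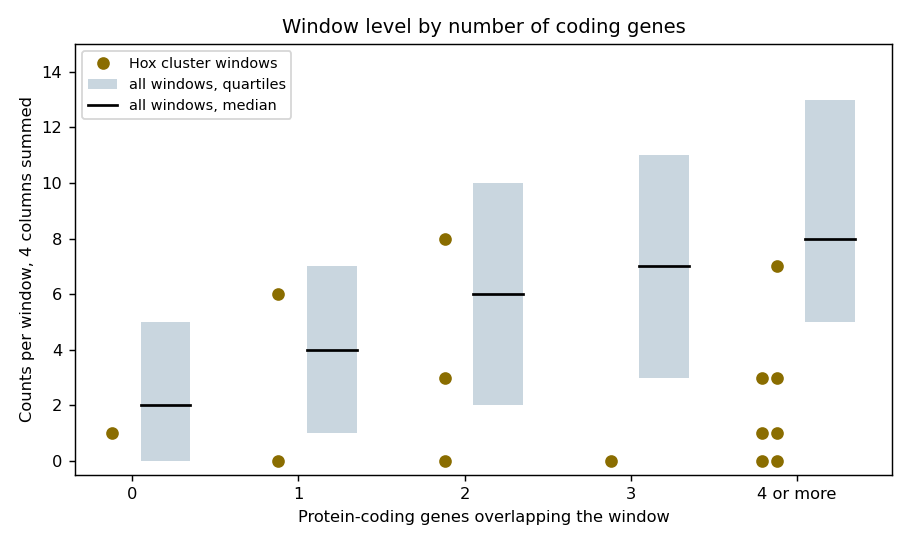
Summed count per window over both alleles and replicates, against the number of protein-coding genes overlapping the window. Points are the 14 Hox cluster windows, pale boxes the quartiles and black lines the medians of all windows, and the 7 cluster windows with 4 or more genes lie at 0 to 7 while the median of all such windows is 8.

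The microRNA genes within the clusters lay in the same low windows. Their mature sequences are shown because the genes come as copies in different clusters that share a seed, so that 1 seed can be read at several loci. Sequences are from RefSeq (GRCm38.p6), with the seed, bases 2 to 8, in capitals.
miR-10a-5p: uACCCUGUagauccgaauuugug
miR-10b-5p: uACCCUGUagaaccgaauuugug
miR-196a-5p: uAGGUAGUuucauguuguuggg
miR-196b-5p: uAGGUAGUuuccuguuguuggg

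The miR-10 pair differed in counts by locus. The window of Mir10a, in HoxB (chr11:96317165-96317274), was at 0 in all 4 columns. That of Mir10b, in HoxD (chr2:74726070-74726137), had 2 counts (129) and 1 (CAS) in replicate 1 and none in replicate 2. The mature miR-196a is made from both Mir196a-1 and Mir196a-2. The Mir196a-1 window in HoxB was at 0, the Mir196a-2 window in HoxC had 1 count, on the 129 allele in replicate 2, and the Mir196b window in HoxA had 3 counts. The window of Mir615, in HoxC, was at 0. With the 5 long noncoding RNA genes examined (Hotair, Hottip, Hotairm1, Hotairm2 and Hoxa11os), 7 of 11 noncoding genes lay in a window with a count, against the 78.3% of all windows, at a relative level of 0.393 ± 0.210 over their 9 windows. Differences of 1 to 3 counts between these loci are too small to rank them.

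The flanks differed among themselves. On the side of HoxA that holds Skap2, a Src kinase adaptor gene, the relative level was 1.23 ± 0.364 and on the Hoxa13 side 0.442 ± 0.133. The Hoxb13 and Hoxb1 sides of HoxB stood at 1.13 ± 0.433 and 1.23 ± 0.705, and the Hoxc13 and Hoxc4 sides of HoxC at 1.32 ± 0.575 and 1.14 ± 0.124. The Skap2, Hoxb13, Hoxb1 and Hoxc13 sides were above 1 in replicate 1 (1.49, 1.44, 1.73 and 1.73) and below 1 in replicate 2 (0.972, 0.825, 0.734 and 0.917). The flanks of HoxD were both low, at 0.427 ± 0.0183 on the Hoxd13 side and 0.625 ± 0.0805 on the Hoxd1 side (SD, n = 2 in each). The HoxD cluster itself was higher than its flanks, by a ratio of 3.26 in replicate 1 and 1.21 in replicate 2, whereas HoxA (0.482 and 0.185), HoxB (0.185 and 0.0941) and HoxC (0.433 and 0.623) were lower than theirs in both. On the Hoxc4 side the table ends before 1 Mb, at position 103950000, and 1 further window is not in the table, which leaves 17 windows.

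Around HoxD the counts were low to 750 kb from the cluster and higher at the far edge. Each band of distance given here pools both sides of a cluster. Within 250 kb of the cluster the relative level was 0.292 in replicate 1 and 0.330 in replicate 2, between 250 and 500 kb it was 0.146 and 0.147, and between 500 and 750 kb it was 0.292 and 0.220. Between 750 kb and 1 Mb it was 1.46 and 1.32, with up to 14 counts in a window on the Hoxd1 side and up to 10 on the Hoxd13 side. The band from 250 to 500 kb held no coding gene in its 10 windows and the band from 750 kb to 1 Mb 1.00 per window. Gene-poor regulatory landscapes are known on both sides of HoxD, and the part of gene density in the low level was not tested. Around HoxA the bands within 500 kb were also low, at 0.682 and 0.513 within 250 kb and 0.585 and 0.403 from 250 to 500 kb. From 500 to 750 kb HoxA had 1.66 and 1.17. In that band a window of the Skap2 side reached 22 counts, and no window of the Hoxa13 side had more than 4. HoxB was highest from 500 to 750 kb, at 2.53 and 1.21, with 0.926 and 0.587 within 250 kb. Around HoxC the band within 250 kb had 1.80 and 1.25, that from 250 to 500 kb 1.85 and 1.32, and that beyond 750 kb 0.975 and 0.504. The windows next to the HoxC cluster were nevertheless low, with 1 count on the Hoxc13 side and 0 on the Hoxc4 side. Within 250 kb the window of Atp5g2 held 26 counts and that of Smug1 15.

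The highest flank windows held genes of many kinds. The window with the most counts was that of Atp5g2, which encodes subunit c of the mitochondrial ATP synthase, on the Hoxc13 side (chr15:102650001-102700000), with 7 counts (129) and 8 (CAS) in replicate 1, and 5 (129) and 6 (CAS) in replicate 2. It was followed by a window of Snx10, a sorting nexin, on the Skap2 side, with 7 (129) and 4 (CAS) in replicate 1, and again 7 (129) and 4 (CAS) in replicate 2. On the Hoxc4 side the window of Nckap1l, Pde1b and Ppp1r1a had 5 (129) and 4 (CAS), then 7 (129) and 4 (CAS). The highest window of the Hoxb1 side held Copz2, a coatomer subunit of vesicle transport, with 16 counts in all, and that of the Hoxb13 side held Nxph3, a neurexophilin, also with 16. Near HoxD the highest windows were those of Hnrnpa3, an RNA-binding protein, with Nfe2l2, the regulator of the oxidative stress response (14 counts), and of Chn1, a Rac-GTPase activator (10 counts). The highest window of the Hoxa13 side, that of Hibadh, an enzyme of valine breakdown, had 7 counts.

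The genes next to the clusters were intermediate. Of 11 neighbours listed, 10 had a window and all 10 had at least 1 count, at a relative level of 0.841 ± 0.217. Of their 24 windows 6 were at 0, against 21.7% of all windows, and genes that span several windows reach 1 count more easily. The window of Evx2 and the window that Ttll6 shares with Hoxb13 are cluster windows, so this level is partly that of the clusters. Evx1, the even-skipped homeobox gene beyond Hoxa13, had 0 (129) and 0 (CAS) in replicate 1, and 1 (129) and 1 (CAS) in replicate 2. Smug1, a uracil-DNA glycosylase beside HoxC, had 4 (129) and 4 (CAS) in replicate 1, and 3 (129) and 4 (CAS) in replicate 2. Mtx2, a mitochondrial import component beside Hoxd1, averaged 2.00 counts per window over its 2 windows and Lnpk, an endoplasmic reticulum protein beyond Evx2, 4.50 over its own 2. The window of Smug1 thus held more counts than any window of the clusters.

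Families with members beside several clusters stood at 1.70 ± 0.502 over 29 windows, and all 23 genes had a count. Of the 29 windows 4 were at 0, against 21.7% of all windows. Their mean of 7.86 counts was near the 8.01 of windows around promoters of all coding genes, so the level is not particular to these families. The families include the heterochromatin protein 1 genes Cbx3 beside HoxA (13 counts in its window), Cbx1 beside HoxB (7.50 per window) and Cbx5 beside HoxC (14 per window). The RNA-binding protein genes Hnrnpa2b1 beside HoxA, Hnrnpa1 beside HoxC and Hnrnpa3 beside HoxD had 13, 13 and 14 counts in their windows. The Nfe2 family of stress and blood transcription factors ranged from 7 per window for Nfe2l1 beside HoxB to 13.5 for Nfe2l2 beside HoxD. Many of these values come from the same windows and are not independent. Cbx3, Hnrnpa2b1 and Nfe2l3 share a window, as do Cbx5, Hnrnpa1 and Nfe2. Cbx1 and Nfe2l1 also share a window, and so do Hnrnpa3 and Nfe2l2. Other families of the list were lower or uneven, with 3.75 counts per window for Skap2 beside HoxA and 3 for Skap1 beside HoxB, adaptors of Src family kinases. The ATP synthase genes Atp5g1 beside HoxB and Atp5g3 beside HoxD had 5 each, and Atp5g2 beside HoxC 26.

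**Figure D4:**
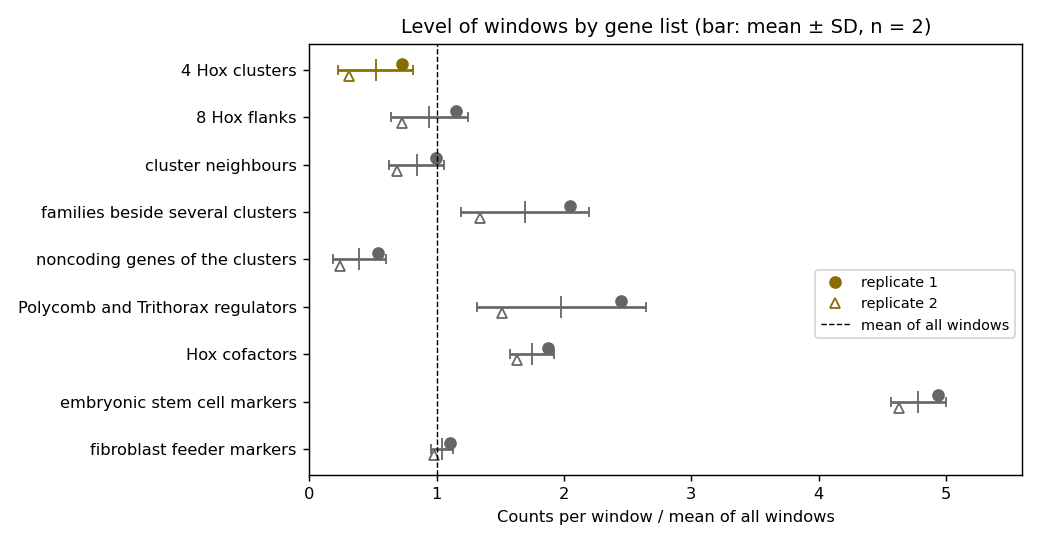
Relative level (counts per window of both alleles over the mean of all windows, no unit) of the windows of each gene list, with circles for replicate 1, triangles for replicate 2 and bars for the mean ± SD (n = 2). The 4 Hox clusters (0.523) and their noncoding genes (0.393) lie lowest, the neighbouring gene families at 1.70 and the stem cell markers at 4.78.

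Counts in the Hox domains were more often higher in replicate 1, and those of the whole table in replicate 2. Of the 171 windows, 62 (36.3%) had a higher count in replicate 1 and 27 (15.8%) in replicate 2, whereas over all windows 15.3% were higher in replicate 1 and 45.2% in replicate 2. Gene density moved with this, and its part was not tested. Windows with 4 or more coding genes averaged 5.04 counts in replicate 1 and 4.41 in replicate 2 over the whole table, and windows with 0 genes 1.27 and 2.24. Among the 171 windows the counts of the replicates correlated at r = 0.855, as a description over windows that share libraries and gene content.

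No allelic difference was detectable in the clusters. The clusters together had 13 counts (129) and 8 (CAS) in replicate 1, and 7 (129) and 5 (CAS) in replicate 2. The 129 share of the counts was 61.9% in replicate 1 (exact Clopper-Pearson 95% interval 38.4 to 81.9%) and 58.3% in replicate 2 (27.7 to 84.8%), a mean of 60.1 ± 2.53% (SD, n = 2). The flanks had 179 (129) and 193 (CAS) in replicate 1, a share of 48.1% (42.9 to 53.3%), and 162 (129) and 149 (CAS) in replicate 2, a share of 52.1% (46.4 to 57.8%). All windows had 48.8% and 49.9%. Every one of these intervals for the clusters and flanks includes 50%, so a difference was not detectable at this depth, which does not show that the alleles are alike. The intervals cover counting error only and assume independent counts. In windows with 4 or more counts the alleles varied less than independent counts would, with a ratio to the binomial variance of 0.333 in replicate 1 and 0.465 in replicate 2, so the intervals and the limits for a count of 0 are not exact for these values.

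By cluster, the shares rested on 1 to 11 counts per replicate. HoxD had 7 (129) and 4 (CAS) in replicate 1, a share of 63.6%, and 3 (129) and 2 (CAS) in replicate 2, a share of 60%, against 53.7% and 52.3% over all of chromosome 2. HoxC had 75% and 40%, opposite sides of 50% in the 2 replicates. HoxA had 33.3% of 3 counts and 100% of 1 count, and HoxB 66.7% of 3 counts and 100% of 1 count. Among the flanks the Skap2 side was on the 129 side in both replicates, with 32 (129) and 29 (CAS) in replicate 1, and 32 (129) and 21 (CAS) in replicate 2, shares of 52.5% and 60.4% against 49.6% and 51.6% over chromosome 6. The Hoxb1 side was on the CAS side in both, at 46.5% and 45.0%, against 48.6% and 50.9% over chromosome 11.

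**Figure D5:**
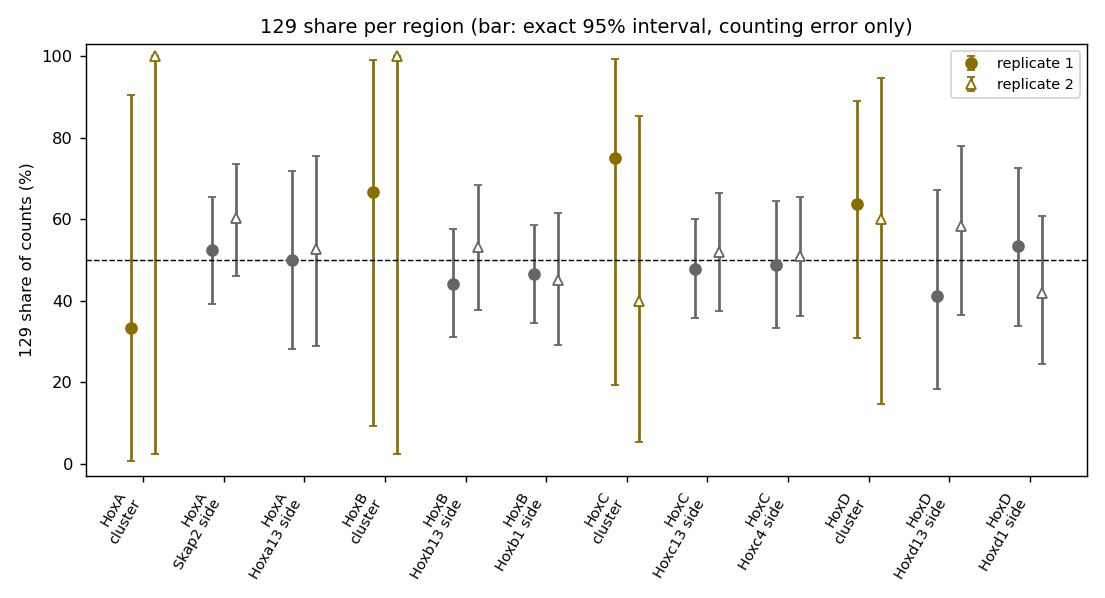
129 share of the counts of both alleles (%) in each Hox cluster and flank, with circles for replicate 1, triangles for replicate 2 and exact 95% intervals for counting error. All intervals cross 50%, and those of the clusters, which rest on 1 to 11 counts, are the widest.

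No cluster or flank differed between the alleles in edgeR's quasi-likelihood test, which was run on the 12 Hox regions together with 1 Mb bins of the rest of the table. Of the 12, 0 passed a Benjamini-Hochberg adjusted p of 0.05, against a background of 0% of 2391 regions, and 0 of the 12 (70 of 2391) had an unadjusted p under 0.05. The 129-over-CAS log2 difference was 0.75 (SE 0.76) in HoxD, 1.41 (SE 1.19) in HoxB, 0.34 (SE 0.71) in HoxC and 0.035 (SE 1.25) in HoxA. In the flanks it ranged from -0.18 (SE 0.55) on the Hoxb1 side to 0.39 (SE 0.36) on the Skap2 side. The adjusted p was 0.998 for each of the 12 in edgeR, with a smallest unadjusted p of 0.294, for HoxB. The median log2 difference was 0.067 over the 12 regions and 0.0095 over all 2391. With the replicate as a block, since both alleles of a replicate come from 1 library, 0.293% of the 2391 regions passed and still 0 of the 12, and the smallest adjusted p, on the Skap2 side, was 0.835 with a log2 difference of 0.40 (SE 0.16). Its unadjusted edgeR p was 0.137, since edgeR holds p at or above that of a Poisson fit. The SE leaves out that bound and so understates the uncertainty.

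Single windows gave the same picture. Of the 171 Hox windows, 122 held a count and were tested, 9 of the 14 cluster windows and 113 of the 157 flank windows. In edgeR 0 of the 122 passed an adjusted p of 0.05, against a background of 0% of 34417 windows, and 3 of the 122 had an unadjusted p under 0.05, against 2.64% of all. DESeq2's Wald test and limma on square roots also called 0 of the 122, against 0 and 78 of all 34417 windows. These 3 windows lay in flanks and had counts on the 129 allele only. A window of Jazf1, a zinc finger gene on the Hoxa13 side that spans several windows, had 2 (129) and 0 (CAS) in each replicate. Of its other windows, chr6:52850001-52900000 had 1 (129) and 0 (CAS) in each replicate, and chr6:52950001-53000000 had 0 (129) and 1 (CAS). The window of Mrpl45 and Gpr179 on the Hoxb1 side had 2 (129) and 0 (CAS) in replicate 1, and 1 (129) and 0 (CAS) in replicate 2. The window nearest to Mucl2, on the Hoxc4 side, had 1 (129) and 0 (CAS), then 2 (129) and 0 (CAS).

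By direction alone, the 129 allele was higher in both replicates in 1 of 9 cluster windows and 18 of 113 flank windows, against a background of 11.4%. The CAS allele was higher in both in 0 of 9 cluster windows and 15 of 113 flank windows, against 12.6%. The 1 cluster window was that of Hoxd13 to Hoxd9. A difference of at least 2 counts in both replicates was found on the 129 side in 0 of 9 cluster windows and 2 of 113 flank windows, against 1.6%, and on the CAS side in 0 of 9 and 1 of 113, against 1.92%. On the 129 side the flank windows were the Snx10 window with 7 (129) and 4 (CAS) in each replicate and the Jazf1 window with 2 (129) and 0 (CAS). On the CAS side it was a window without a coding gene, 81612 bp from Evx1 (chr6:52400001-52450000), with 1 (129) and 3 (CAS) in replicate 1, and 0 (129) and 2 (CAS) in replicate 2. These counts are near the shares found over the whole table.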

How the data were processed

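The deposited table holds whole-number counts per 50 kb window, 4 columns (2 alleles by 2 replicates), with no visible normalization. Bowtie2, MACS2, SAMtools and bedtools and the mm10 build are named in the submitters' processing notes, without versions or roles. The sources used here do not give what is counted, the rule for assigning alleles or the choice of windows. Windows were matched to RefSeq genes (GRCm38.p6, whose primary sequence is mm10) by any shared base. Only chromosomes 1 to 19 were analysed. Members and lists were chosen with earlier results of these data known. The text names Hox genes by their windows (1 gene window is not reported here), the 3 highest windows of each flank, windows with an unadjusted p under 0.05 or a difference of 2 or more counts, and the lists. Windows with an unadjusted p under 0.05 were added to that rule after their values were seen, and among listed genes the examples were picked by hand. Allelic tests used edgeR 4.0.16 (TMM scaling, features with at least 1 count, Benjamini-Hochberg adjustment over all features), and the SE was derived from the log2 difference and its F statistic. The p-values of edgeR were held at or above those of a Poisson fit, a bound that the SE does not include. DESeq2 1.42.0 and limma 3.58.1 (square root of the count plus 0.375, columns centred) were alternatives, and the fits were tested on simulated data. Alleles of a replicate come from 1 library, and their deviations correlated at r = 0.334 over all windows and 0.380 over the Hox windows. Shares have exact Clopper-Pearson 95% intervals, and a count of 0 allows 3 counts.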

Additional observations from a re-analysis of the deposited data

How the results depend on the processing

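The clusters lay below the table average under every alternative run, and the flanks did so except without replicate 2. Leaving out a replicate gave 0.314 to 0.731 for the level of the clusters, 0.727 to 1.15 for that of the flanks, 58.3 to 61.9% for the 129 share of the clusters and 48.1 to 52.1% for that of the flanks, which crosses 50%. With only the 5 windows that overlap a Hox gene body by 25 kb or more, the clusters had a level of 0.329 and a 129 share of 75%, the mean of 3 (129) and 3 (CAS) counts in replicate 1 and 1 (129) and 0 (CAS) in replicate 2, and HoxB and HoxC were at 0. Flanks of 500 kb lowered the Skap2 side to 0.598, the Hoxd13 side to 0.244 and the Hoxd1 side to 0.214, and raised the Hoxc4 side to 1.77, and flanks of 2 Mb gave 0.596 on the Hoxd13 side and 0.815 on the Hoxd1 side. With 500 kb flanks the 129 share was 31.2% on the Hoxd13 side (49.8% with 1 Mb), 60% on the Hoxd1 side (47.8%), 43.6% on the Hoxa13 side (51.3%), 38.8% on the Hoxb1 side (45.7%, and 47.5% with 2 Mb) and 47.0% on the Hoxc4 side (49.9%). Without replicate 1 the level of the Hoxb1 side was 0.734, against 1.23 with both. Set against windows with a coding gene, a choice made after seeing the data, the clusters had 0.426 and the flanks 0.774. The log2 difference of HoxA was -0.0743 in the DESeq2 Wald test, and the cause was not tested. The remaining 91 log2 values kept their sign. The replicate block changed no Hox call, and 7 of 2391 regions passed with it, against 0 without. Over all windows limma on centred square roots called 78 of 34417 and edgeR on column totals 1, none of them a Hox window. The filter at a minimum count of 10 kept 40 windows, none in a Hox domain, and 8 of the 12 Hox regions. Fits without a replicate have 1 column per allele and no test. The small counts and unknown read depth limit every share above.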

Other observations

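The genes that keep Hox clusters repressed or active, and those whose proteins act with Hox proteins, had higher list levels than the clusters (0.523 ± 0.295), though not every gene did. Windows of the regulators averaged 9.14 counts and those of the cofactors 8.28, near the 8.01 of windows around promoters of all coding genes. The higher level is thus not particular to these lists, which take every window of a gene and not only that of its promoter. Windows of 20 Polycomb and Trithorax regulators, of 22 listed, had a relative level of 1.98 ± 0.666 (SD, n = 2), and each gene had a count. Of their 35 windows 3 were at 0, against 21.7% of all windows, and genes that span several windows reach 1 count more easily. Rbbp7 and Kdm6a, which are X-linked, were not analysed here. The highest per window was Eed, a core subunit of Polycomb repressive complex 2, with 5 counts (129) and 8 (CAS) in replicate 1, and again 5 (129) and 8 (CAS) in replicate 2. Its partner Suz12 averaged 12.5 counts per window and the methyltransferase Ezh2 4. Cbx7, the Polycomb chromobox protein of stem cells, averaged 16.0, Rnf2, the ubiquitin ligase of Polycomb repressive complex 1, 9.5, and Kmt2b, a Trithorax-type methyltransferase, 12. Kmt2a, the Trithorax-type activator of Hox genes, was the lowest with 2, below the 2.36 of the cluster windows.

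The 9 Hox cofactor genes of the Pbx, Meis and Pknox families, homeodomain proteins that bind DNA beside Hox proteins, stood at 1.75 ± 0.174. Of their 32 windows 4 were at 0, against 21.7% of all windows. Pbx4 averaged 15.5 counts per window, Meis1 12.3 and Meis2 10.6, and Pbx3 was the lowest with 2.60.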
